A study of Homo sapiens with 6 samples.

Results

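CDK1, its cyclin partners CCNB1 and CCNB2, and 5 genes that act on or beside this kinase at the passage from G2 into mitosis were read in human mast cells after inhibition of either sphingosine kinase. The 8 genes (CDK1, CCNB1, CCNB2, CKS2, CDC25C, WEE1, CCNF and GTSE1) were chosen by name for their place at G2/M entry, and all 8 were among the 84 cell cycle genes of a quantitative PCR array. The cells were HMC-1.2, a neoplastic human mast cell line whose labels give the oncogenic KIT mutations D816V and V560G in every group, the controls included; the study's paper writes the second as a change of G to V at the same residue. They were cultured for 24 h with vehicle (0.1% DMSO), with 5 µM SPHK1-I, the sphingosine kinase 1 inhibitor SKI-178, or with 50 µM SPHK2-I, the sphingosine kinase 2 inhibitor ABC294640. Each of the 3 groups had 2 samples of this 1 line, and the array holds no mast cell marker against which the labelled cell type could be checked. The doses of the inhibitors differ, so their values are set side by side and not at a matched dose. The labels do not say that duplicates came from separate cultures, so each p-value measures the spread between these samples, which may be technical.

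CDK1 bound to a B-type cyclin is the kinase that drives a cell from G2 into mitosis. Until then WEE1 holds it inactive by phosphorylating it, and phosphatases of the CDC25 family, CDC25C among them, remove that phosphate. The mRNAs of CDK1, its cyclins and many mitotic genes are low in G1 and rise through S phase and G2 in cycling cells. The array measured mRNA only, so neither protein, phosphorylation nor kinase activity was read, and in such bulk RNA a smaller share of cells in G2 and less mRNA per cell cannot be told apart.

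Promoters of genes expressed late in the cell cycle often hold CCAAT boxes, bound by NF-Y, and a cell cycle genes homology region (CHR), bound by the DREAM and MYB-MuvB complexes. The RefSeq promoter table (GRCh38.p14) held windows for 7 of the 8 genes, WEE1 aside, and the 250 bases before each start were searched on both strands. The letters searched were CCAAT for the box, and for the CHR the form TTTGAA that several of these genes carry or, as an alternative with 1 base changed, TTTAAA. At least 2 CCAAT boxes in 1 window were found for 6 of these 7 genes, against 11.5% of the 27305 genes in the table, and 5 of the 7 had them together with a CHR in that window, against 2.62% of all genes. A match is a description of these letters and not a binding site. The promoters shown are those of CDK1 and CCNF, the genes lower with both inhibitors and closest to each other in profile, and those of the B cyclins, which the inhibitors moved by different amounts. Capitals mark the matches, all of which lie on the strand printed. CDK1 has 2 annotated starts in the table and the window shown, at chr10:60778081-60778330, lies before both. The others are at chr16:2429197-2429446 (CCNF), chr5:69166900-69167149 (CCNB1) and chr15:59104896-59105145 (CCNB2), all on the plus strand and read 5′ to 3′.
CDK1: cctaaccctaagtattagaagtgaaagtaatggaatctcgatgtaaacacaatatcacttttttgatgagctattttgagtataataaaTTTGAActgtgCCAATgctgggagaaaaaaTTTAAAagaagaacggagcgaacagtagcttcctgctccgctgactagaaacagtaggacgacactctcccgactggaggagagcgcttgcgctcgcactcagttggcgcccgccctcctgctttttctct
CCNF: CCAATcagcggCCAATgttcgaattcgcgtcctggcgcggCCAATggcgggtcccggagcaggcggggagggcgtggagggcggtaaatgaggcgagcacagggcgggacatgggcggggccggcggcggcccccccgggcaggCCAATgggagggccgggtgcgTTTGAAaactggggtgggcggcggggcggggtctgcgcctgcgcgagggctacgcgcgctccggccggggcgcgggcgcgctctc
CCNB1: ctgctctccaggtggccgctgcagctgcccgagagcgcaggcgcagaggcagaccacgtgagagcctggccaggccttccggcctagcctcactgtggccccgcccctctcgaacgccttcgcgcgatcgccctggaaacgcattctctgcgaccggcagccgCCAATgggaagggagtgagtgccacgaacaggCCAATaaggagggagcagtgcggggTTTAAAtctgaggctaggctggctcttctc
CCNB2: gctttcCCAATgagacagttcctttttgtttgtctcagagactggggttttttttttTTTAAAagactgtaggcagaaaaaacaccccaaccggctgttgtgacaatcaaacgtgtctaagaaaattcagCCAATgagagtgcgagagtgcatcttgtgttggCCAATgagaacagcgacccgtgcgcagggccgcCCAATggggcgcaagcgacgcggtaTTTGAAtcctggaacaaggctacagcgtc
CCNB2 and CCNF held 4 CCAAT boxes each, where 2.93% of all 35116 windows held at least 3. CCNB1 held 2 boxes and 1 CHR. The CDK1 window held 1 box and both forms of the CHR, and the window of its later start held 2 boxes and 2 CHR matches.

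Values are given as −ΔCt, the log2 level of a gene relative to the mean threshold cycle (Ct) of 4 housekeeping genes (B2M, GAPDH, HPRT1, RPLP0), or as percent of the geometric mean level of these 4 genes. A level compared between genes also depends on the efficiency of each assay, which was not tested. SPHK1-I sample 2 stood apart, with a median Ct of 29.5 over the 84 genes (27.0 to 28.0 in the others) and 37 genes above a Ct of 30 (9 to 13 in the others). Its positive PCR and reverse transcription controls (mean Ct 21.4 and 24.4) lay close to those of the other samples (21.4 to 21.7 and 24.1 to 24.3). The SPHK1-I duplicates also differed most from each other, by a median of 0.43 (log2) over the 8 genes. That gap was 0.09 in vehicle and 0.13 with SPHK2-I. Several values that rest on SPHK1-I are therefore also given without 1 of its samples. SPHK1-I then has no spread of its own, and the spread is taken from vehicle and SPHK2-I. A call or p-value from such a fit leaves out the SPHK1-I spread.

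In vehicle CKS2 had the highest level, followed by CDK1, the B cyclins, GTSE1 and WEE1, CCNF, and CDC25C, the lowest. CKS2 ranked first of the 84 genes in all 6 samples, and CDC25C lay between ranks 79 and 82 with a Ct above 30 in every sample. CCNB2 and CCNB1 overlapped in vehicle (gap of 0.02, log2), as did GTSE1 and WEE1 (0.04). With SPHK2-I the order changed at one place that no sample blurred: WEE1, below CCNB1 in both vehicle samples, lay above it in both treated samples, by a mean of 0.55 (log2). With SPHK1-I CDK1, CCNB2 and CCNB1 overlapped from one to the next.

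**Figure D1:**
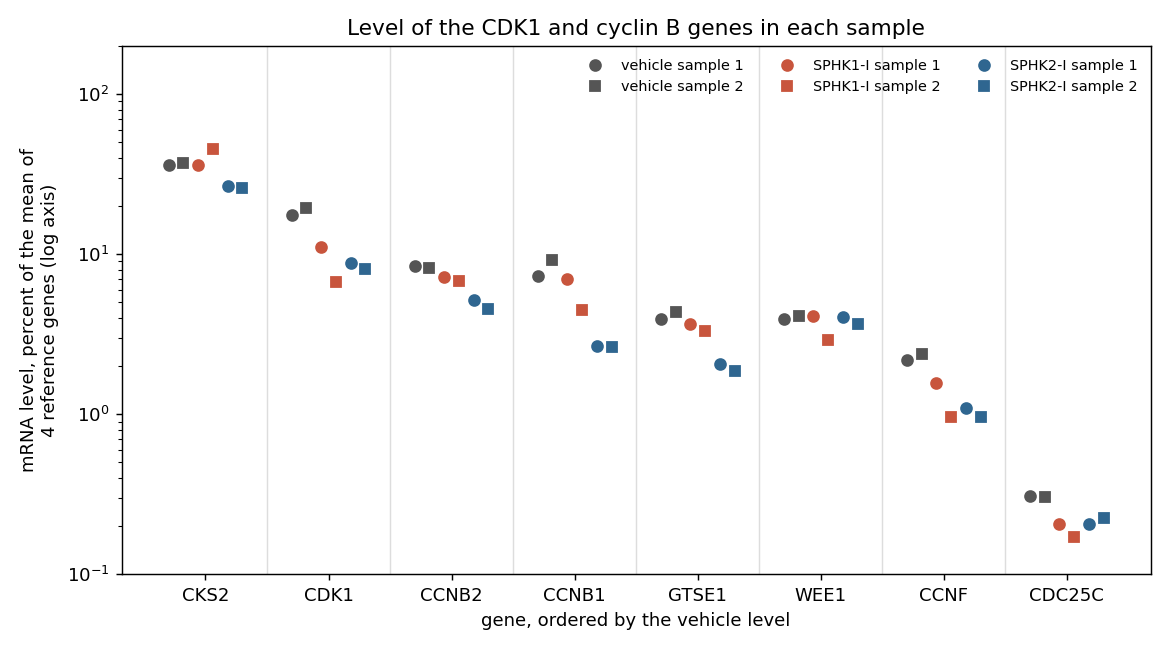
mRNA level of the 8 genes in each of the 6 samples, as percent of the geometric mean of the 4 reference genes on a log axis, ordered by the vehicle level. Circles are sample 1 and squares sample 2 of each group. CDK1 and CCNF are lower in all 4 inhibitor samples than in vehicle, CCNB1 is lowest in the SPHK2-I samples (2.67% and 2.61%), and WEE1 overlaps between the groups.

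CDK1, the catalytic subunit, fell with both inhibitors and by nearly the same amount. Its level was 17.6% and 19.4% of the reference in the vehicle samples, 11.2% and 6.66% with SPHK1-I, then 8.80% and 8.09% after SPHK2-I. Both vehicle samples lay above all treated samples, and the SPHK2-I samples lay between those of SPHK1-I. The means were 18.5% ± 1.30 in vehicle, 8.90% ± 3.18 after SPHK1-I and 8.44% ± 0.498 after SPHK2-I (SD, n = 2 each). CDK1 was thus 2.14-fold lower with SPHK1-I (log2 change −1.10, SE 0.25, limma adjusted p = 0.0153) and 2.19-fold lower with SPHK2-I (−1.13, SE 0.25, adjusted p = 0.0116). The difference between the inhibitors was −0.03 with a 95% interval from −0.61 to 0.55 (adjusted p = 0.933), which does not show that they act alike. Leaving out SPHK1-I sample 1 gave 0.34, and leaving out its sample 2 gave −0.40.

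The B cyclins, which activate CDK1 and direct it to its substrates, were lower with SPHK2-I and not called with SPHK1-I. CCNB1 was at 7.34% and 9.17% in vehicle, 7.03% and 4.48% with SPHK1-I, then 2.67% and 2.61% after SPHK2-I. The SPHK2-I samples nearly coincided and lay below all others, while SPHK1-I sample 1 came close to vehicle sample 1. CCNB1 was 3.11-fold lower with SPHK2-I (−1.64, SE 0.24, adjusted p = 0.00687), the largest fall of the 84 genes, and −0.55 with SPHK1-I (SE 0.24, adjusted p = 0.118). With SPHK1-I sample 1 left out the latter became −0.87, and with its sample 2 left out it was −0.22. CCNB2 was at 8.43% and 8.23% in vehicle, 7.21% and 6.79% with SPHK1-I, then 5.16% and 4.56% after SPHK2-I. The groups lay in that order without overlap. The log2 change was −0.78 with SPHK2-I (1.72-fold lower, SE 0.16, adjusted p = 0.0106) and −0.25 with SPHK1-I (SE 0.16, adjusted p = 0.242). Between the inhibitors the log2 difference was −1.09 for CCNB1 and −0.53 for CCNB2 (adjusted p = 0.0170 and 0.0404), with SPHK2-I the lower for both.

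CKS2, the small subunit that binds CDK1 and helps it act on phosphorylated substrates, did not follow the kinase. It was at 36.1% and 37.1% in vehicle, 35.8% and 45.7% with SPHK1-I, then 26.5% and 25.8% after SPHK2-I. The vehicle samples lay within the range of SPHK1-I and above both SPHK2-I samples. Neither change from vehicle passed the test (0.15 with SPHK1-I, SE 0.17, adjusted p = 0.501; −0.49 with SPHK2-I, SE 0.17, adjusted p = 0.0721), but the difference of −0.63 between the inhibitors did (adjusted p = 0.0365). Without SPHK1-I sample 2, the sample with the highest CKS2 level, the SPHK1-I value was −0.03 and the difference −0.45. With SPHK1-I sample 1 left out instead, they were 0.32 and −0.81.

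Of the pair that sets the phosphate on CDK1, the phosphatase gene was called as lower with SPHK1-I only, and the kinase gene with neither inhibitor. CDC25C was at 0.306% and 0.304% in vehicle, 0.205% and 0.171% with SPHK1-I, then 0.206% and 0.224% after SPHK2-I. All treated samples lay below vehicle, whose duplicates nearly coincided, though with Ct values of 30.4 to 33.5 these were among the weakest signals on the array. CDC25C fell 1.63-fold with SPHK1-I (−0.70, SE 0.16, adjusted p = 0.0153), and its change of −0.51 with SPHK2-I missed the threshold (SE 0.16, adjusted p = 0.0557). The difference between the inhibitors was 0.20 (95% interval −0.19 to 0.58, adjusted p = 0.396), so no difference in their action on CDC25C was shown. With SPHK1-I sample 1 left out this difference was 0.32. WEE1 was at 3.95% and 4.12% in vehicle, 4.13% and 2.91% with SPHK1-I, then 4.08% and 3.67% after SPHK2-I. The groups overlapped, and SPHK1-I sample 2 alone lay clearly lower. The change was −0.22 with SPHK1-I (95% interval −0.69 to 0.25, adjusted p = 0.406) and −0.06 with SPHK2-I (−0.54 to 0.41, adjusted p = 0.809). Both intervals leave out the mean change of CDK1 with the same inhibitor (−1.10 and −1.13). With SPHK1-I, however, the WEE1 interval overlaps that of CDK1 (−1.68 to −0.52). The WEE1 change with SPHK1-I was −0.47 when SPHK1-I sample 1 was left out and 0.03 when its sample 2 was.

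CCNF, the F-box protein cyclin F that marks proteins for degradation in G2 and binds no CDK, was called as lower with both inhibitors. It was at 2.17% and 2.37% in vehicle, 1.56% and 0.962% with SPHK1-I, then 1.10% and 0.962% after SPHK2-I. Vehicle lay above all treated samples and the inhibitor groups overlapped. CCNF fell 1.85-fold with SPHK1-I (−0.89, SE 0.24, adjusted p = 0.0246) and 2.21-fold with SPHK2-I (−1.14, SE 0.24, adjusted p = 0.0113). The difference of −0.26 (adjusted p = 0.468) became −0.60 without SPHK1-I sample 2 and 0.09 without its sample 1. With every Ct limited to 30, CCNF stood at −0.37 with SPHK1-I and was not called (adjusted p = 0.182). CDK1, which had no Ct above 30, kept its call at −1.10 (adjusted p = 0.0339). The CCNF difference between the inhibitors was then −0.77 and called (adjusted p = 0.0365). For CCNF this limit altered SPHK1-I sample 2 alone (Ct 31.03, against 27.46 to 29.37 in the others). Both CCNF shifts rest on that capped value. GTSE1, a microtubule-binding protein expressed in S phase and G2, was called as lower with SPHK2-I. It was at 3.92% and 4.38% in vehicle, 3.68% and 3.32% with SPHK1-I, then 2.05% and 1.86% after SPHK2-I. The SPHK2-I samples lay well below the rest. GTSE1 fell 2.13-fold with SPHK2-I (−1.09, SE 0.16, adjusted p = 0.00687) and stood at −0.25 with SPHK1-I (SE 0.16, adjusted p = 0.266). With SPHK1-I sample 1 left out the latter was −0.32, and with its sample 2 left out −0.17. Between the inhibitors GTSE1 differed by −0.84, SPHK2-I being the lower (adjusted p = 0.0113).

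With SPHK1-I, 3 of the 8 genes were called as lower (CDK1, CDC25C and CCNF) and none as higher, against 31% and 4.76% of all 84 genes, a share near that of the array. The median change of the 8 was −0.40, beside −0.35 over the 84. All treated samples lay below both vehicle samples for 6 of the 8, as for 57.1% of the 84. The calls rested on every vehicle and SPHK2-I sample: without vehicle sample 1 or 2 none of the 8 was called (CDK1 adjusted p = 0.110 and 0.165), and without either SPHK2-I sample, which leaves the SPHK2-I group with 1 sample and no spread of its own, none was (CDK1 adjusted p = 0.0556). Without SPHK1-I sample 2 CDK1 stood at −0.73, CDC25C at −0.58 and CCNF at −0.54. Without its sample 1 they stood at −1.47, −0.83 and −1.24.

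With SPHK2-I, 5 of the 8 were called as lower (CCNB1, GTSE1, CCNB2, CCNF and CDK1) and none as higher, against 23.8% and 4.76% of the 84. The median change was −0.93, beside −0.25 over the 84, and CCNB1, CCNF, CDK1 and GTSE1 held places 1, 6, 7 and 9 among the falls. Treated and vehicle samples did not overlap for 7 of the 8, WEE1 being the exception, against 60.7% of the 84. Again no call was made without vehicle sample 1 or 2 (CCNB1 adjusted p = 0.103 and 0.126) or without SPHK2-I sample 1 or 2 (0.0663 and 0.121), with CCNB1 still between −1.80 and −1.48. Without either SPHK1-I sample the 5 were called together with CDC25C and CKS2.

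Set directly against SPHK1-I, SPHK2-I gave lower levels of CCNB1, GTSE1, CCNB2 and CKS2, 4 of the 8, and a higher level of none, where 15.5% of the 84 were called in each direction. The median difference was −0.39, beside 0.13 over the 84. The 4 genes did not overlap between the inhibitors, as for 23.8% of the array, and CDC25C alone was apart in the other direction (34.5% of the array). Vehicle samples enter this difference only through the pooled spread. None of the 8 was called without vehicle sample 1 or 2 or without SPHK2-I sample 1 or 2. Without SPHK1-I sample 1 or 2 all 4 genes stayed lower with SPHK2-I, with CCNB1 at −0.76 and −1.41.

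**Figure D2:**
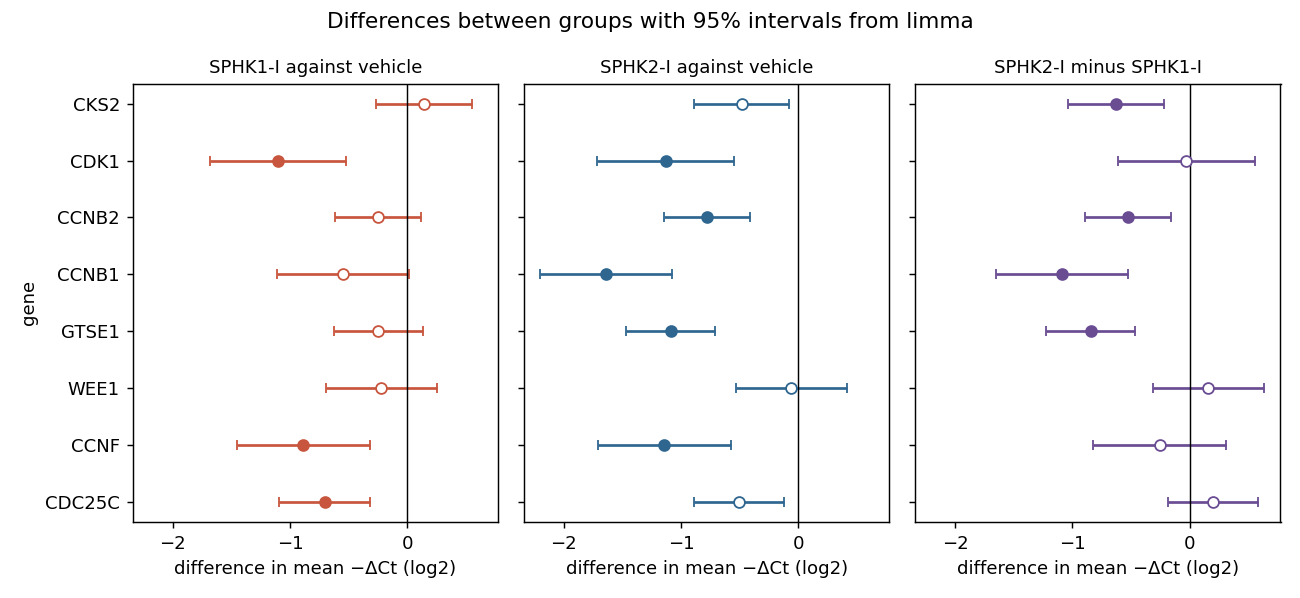
Difference in mean −ΔCt (log2) between groups for each gene, with 95% intervals from limma (n = 2 per group). Filled points passed an adjusted p of 0.05 over the 84 genes and open points did not. CDK1 and CCNF are filled against vehicle for both inhibitors, and CCNB1, CCNB2, GTSE1 and CKS2 are filled where SPHK2-I is set against SPHK1-I.

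The size of each change depended on the reference genes, since these moved too. Relative to the mean of the 4, B2M stood higher (0.61 and 0.42 for the inhibitors of kinase 1 and 2) and HPRT1 lower (−0.35 and −0.52), so that another reference shifts all genes of a comparison by 1 amount. Over 9 references CDK1 ranged from −1.71 to −0.75 with SPHK1-I and from −1.55 to −0.58 with SPHK2-I, and CCNB1 from −2.06 to −1.09 with SPHK2-I. CDK1, CCNF, CDC25C and CCNB1 kept a negative sign with SPHK1-I under all 9, and CDK1, CCNB1, CCNB2, CCNF and GTSE1 did so with SPHK2-I. WEE1 changed sign with both inhibitors, and with ACTB alone it was called as higher with SPHK2-I (0.49, adjusted p = 0.0270). With SPHK1-I the call of CDK1 was lost with GAPDH alone (adjusted p = 0.0532), with RPLP0 alone (0.131), without B2M (0.0686) and with the median of the 84 genes (0.0510). That of CCNF was lost in the same 4 cases and with HPRT1 alone (adjusted p from 0.0771 to 0.150), and that of CDC25C in these 5 and with ACTB alone (0.0633 to 0.150). With SPHK2-I the calls of CDK1, CCNB1, CCNF and GTSE1 were kept under all 9, while CCNB2 lost its call with ACTB alone (−0.23, adjusted p = 0.349) and with HPRT1 alone (−0.26, adjusted p = 0.185).

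**Figure D3:**
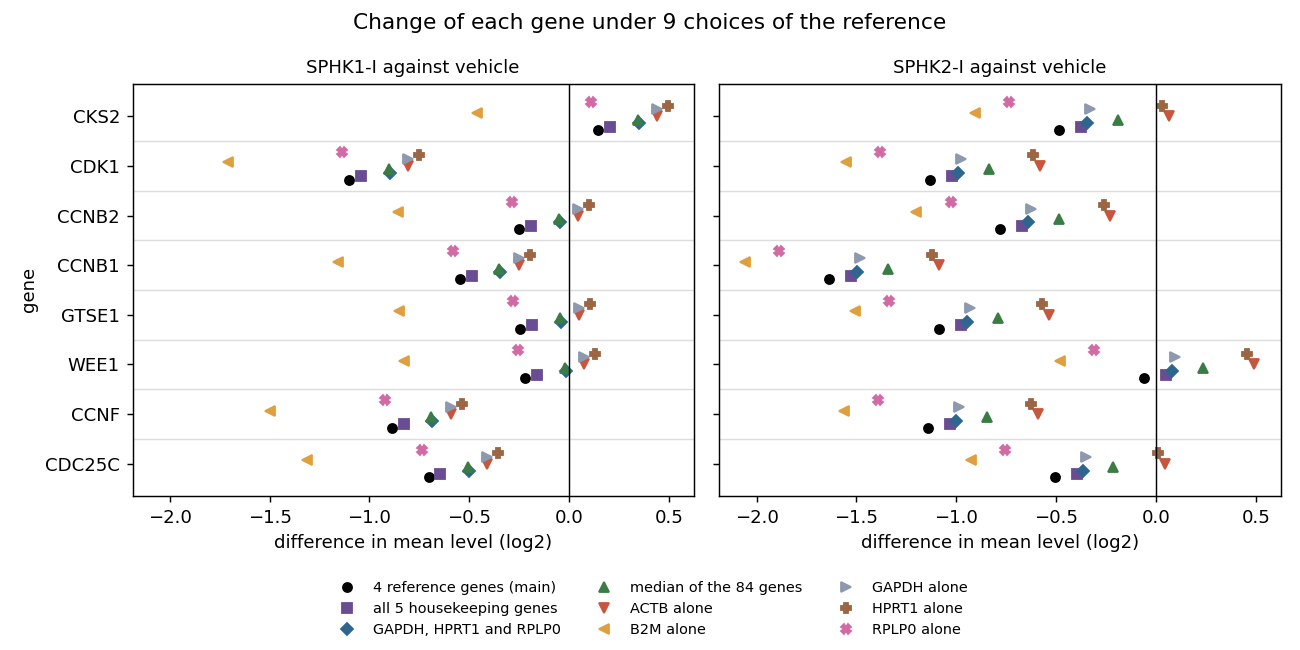
Change of each gene against vehicle (log2) under 9 choices of the reference, SPHK1-I left and SPHK2-I right. The pattern within a panel moves as a whole, from B2M alone at the lower end to HPRT1 or ACTB alone at the upper end, and WEE1 crosses 0 in both panels.

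A ratio of 2 of the 8 genes within a sample involves no reference gene, and 7 such ratios were compared over the 3 contrasts, 21 comparisons in all. With 2 samples against 2, a two-sided exact permutation test cannot go below 0.333, the value it gave wherever the groups did not overlap, and the adjusted p-values below are from limma with the lower gene of the ratio as the single reference for the other 83 genes. Relative to WEE1, CDK1 fell from 4.45 and 4.72 in vehicle to 2.70 and 2.29 after SPHK1-I and 2.16 and 2.21 after SPHK2-I. All treated samples lay below vehicle (log2 changes of −0.88, adjusted p = 0.00820, and −1.07, adjusted p = 0.00410). CCNB1 relative to WEE1 was 1.86 and 2.23 in vehicle, 1.70 and 1.54 after SPHK1-I, and 0.654 and 0.712 after SPHK2-I. The ratio was thus above 1 in vehicle and after SPHK1-I and below 1 after SPHK2-I (−1.58, adjusted p = 0.00401; difference between inhibitors −1.25, adjusted p = 0.00501). CDC25C relative to WEE1 fell by 0.48 on the log2 scale with SPHK1-I (a change of −0.48, adjusted p = 0.0488) and stood at −0.45 with SPHK2-I (adjusted p = 0.0621, and 0.0240 without either SPHK1-I sample). With WEE1 as reference, SPHK1-I gave 3 lower calls among the other 7 genes and SPHK2-I gave 5, against 28.9% and 26.5% of the 83. The call of CDK1 to WEE1 was lost without vehicle sample 1 or 2 for SPHK1-I (adjusted p = 0.0625 and 0.0831), and for SPHK2-I without vehicle sample 2 (0.0527) or SPHK2-I sample 1 or 2 (0.0527 and 0.0564). That of CCNB1 to WEE1 with SPHK2-I was lost in the same 3 cases (adjusted p = 0.0522, 0.0527 and 0.0564) and its difference between inhibitors without SPHK2-I sample 1 or 2 (0.0676 and 0.0737). That of CDC25C to WEE1 with SPHK1-I was lost without any sample but SPHK1-I sample 2 (adjusted p from 0.0688 to 0.203).

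CCNB1 relative to CDK1 moved in opposite directions with the inhibitors. The ratio was 0.418 and 0.472 in vehicle, 0.631 and 0.673 with SPHK1-I, then 0.303 and 0.323 after SPHK2-I. The 3 groups did not overlap, with SPHK1-I above and SPHK2-I below vehicle. The log2 change was 0.55 with SPHK1-I (adjusted p = 0.0222), −0.51 with SPHK2-I (adjusted p = 0.0225) and the difference between them −1.06 (adjusted p = 0.0104), a lower call made for 4.82% of the 83 other genes. Against CDK1, 61.4% of the 83 other genes were called as higher with SPHK1-I, so a rise there set CCNB1 apart from few. With SPHK2-I CCNB1 was the 1 gene of 83 called as lower (1.2%), and 69.9% were called as higher. Other genes, among them AURKA (−1.35) and CDC25A (−1.31), also fell more than CDK1 (−1.13) with SPHK2-I but were not called against it. CDK1's own spread enters all 83 of these values. The call with SPHK1-I was lost without vehicle sample 1 or 2 (adjusted p = 0.154 and 0.104) or either SPHK2-I sample (0.0867). With SPHK2-I it was lost without vehicle sample 1 or 2 (0.0729 and 0.173) or SPHK2-I sample 1 or 2 (0.188 and 0.132), and the difference between inhibitors was lost without SPHK2-I sample 1 or 2 (0.120 and 0.138).

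CCNB2 and CKS2 were also set against CDK1, against which 61.4% of the 83 other genes were called as higher with SPHK1-I and 69.9% with SPHK2-I. A rise there is thus shared with most of the array. Against the 4 reference genes neither was called with SPHK1-I (−0.25 and 0.15). CCNB2 relative to CDK1 was 0.480 and 0.424 in vehicle, 0.646 and 1.02 with SPHK1-I, then 0.587 and 0.564 after SPHK2-I. CKS2 relative to CDK1 was 2.05 and 1.91 in vehicle, 3.21 and 6.87 with SPHK1-I, then 3.01 and 3.19 after SPHK2-I. Both ratios were higher in all treated samples than in vehicle, and SPHK1-I sample 2 was the highest of each. The rise passed the test with SPHK1-I (0.85, adjusted p = 0.0267, and 1.25, adjusted p = 0.0266; 0.52 and 0.70 without SPHK1-I sample 2) and not with SPHK2-I (0.35, adjusted p = 0.230, and 0.65, adjusted p = 0.145). Without vehicle sample 1 or 2 neither was called with SPHK1-I (adjusted p from 0.0914 to 0.151), nor was CCNB2 to CDK1 without either SPHK2-I sample (0.0537). With SPHK2-I both were called without either SPHK1-I sample (adjusted p = 0.00704 and 0.000158). Between the B cyclins, CCNB1 relative to CCNB2 was 0.871 and 1.11 in vehicle, 0.975 and 0.660 with SPHK1-I, then 0.516 and 0.573 after SPHK2-I. CCNB1 thus fell more than CCNB2 with SPHK2-I, where the 2 samples lay below all others (−0.86, adjusted p = 0.0279). It was the 1 gene of 83 called as lower against CCNB2 (1.2%), and 50.6% were called as higher. With SPHK1-I the change was −0.30 (adjusted p = 0.371), or −0.58 and −0.01 with SPHK1-I sample 1 or 2 left out. The SPHK2-I call was lost without vehicle sample 1 or 2 and without SPHK2-I sample 1 or 2.

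**Figure D4:**
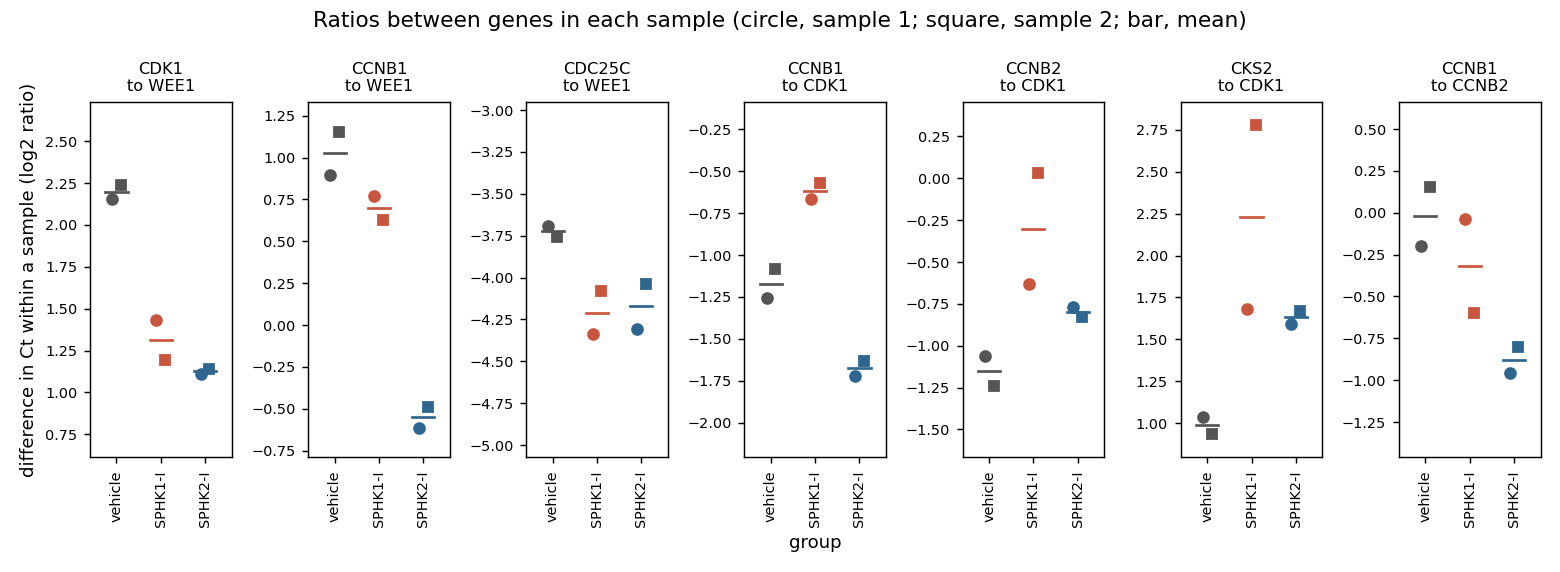
Ratio of 2 genes within each sample, as the difference in Ct (log2), by group. Circles are sample 1, squares sample 2 and bars the mean of 2 samples, and each panel spans the same number of log2 units. CCNB1 to CDK1 lies above vehicle with SPHK1-I and below it with SPHK2-I, and CDK1 to WEE1 lies below vehicle with both.

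Other genes that act on CDK1 were called in part. Of 7 further regulators of the kinase and its complexes, SPHK1-I gave 2 lower calls (31% of the 84 genes) and SPHK2-I gave 3 (23.8%). None was called as higher (4.76% of the array with each inhibitor). Their medians were −0.25 and −0.45, beside −0.35 and −0.25 over the 84. CDC25A, a phosphatase of the same family as CDC25C, fell with both (−1.24, adjusted p = 0.0311, and −1.31, adjusted p = 0.0317). CKS1B, the paralogue of CKS2, fell with SPHK1-I (−0.85, adjusted p = 0.0114; −0.45 with SPHK2-I, not called). CCNA2, the cyclin that precedes the B type on CDK1, and CDKN3, a phosphatase that acts on CDK proteins, fell with SPHK2-I (−1.08, adjusted p = 0.00687, and −0.84, adjusted p = 0.0103). With SPHK1-I CCNA2 stood at −0.50, where the adjusted p missed the threshold of 0.05 by less than rounding, though its samples lay below both vehicle samples, and CDKN3 at −0.05. CDK7, CCNH and MNAT1, the 3 subunits of the CDK-activating kinase, were called with neither inhibitor.

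For 7 checkpoint genes that restrain CDK1, SPHK1-I gave 2 lower and 2 higher calls, and SPHK2-I gave 1 lower and 1 higher. Over the array 31% were called as lower and 4.76% as higher for the former, and 23.8% and 4.76% for the latter. CHEK1 and CHEK2, kinases that inhibit CDC25 phosphatases, fell with SPHK1-I (−0.84, adjusted p = 0.0352, and −0.85, adjusted p = 0.0166). With SPHK2-I CHEK2 fell (−0.70, adjusted p = 0.0369) and CHEK1 stood at −0.64, not called (adjusted p = 0.0917). GADD45A, a stress-induced protein that can inhibit the CDK1 and cyclin B complex, rose with SPHK1-I (1.13, adjusted p = 0.0195). With SPHK2-I it stood at 0.78 and was not called (adjusted p = 0.0783), though both samples lay above vehicle. The difference between the inhibitors was not called for CHEK1 or GADD45A (adjusted p = 0.587 and 0.392). Of 11 genes listed as mitotic, 3 were called as lower with SPHK1-I (AURKB, MKI67 and STMN1), 6 with SPHK2-I and none as higher. Over the 84 genes 31% and 23.8% were called as lower. The medians of the 11 were −0.19 and −0.73, beside −0.35 and −0.25 over the 84. AURKA, the Aurora kinase of the spindle poles, stood at −0.02 with SPHK1-I and fell with SPHK2-I (−1.35, adjusted p = 0.0125), and BIRC5, a subunit of the chromosomal passenger complex, stood at 0.37 and fell with SPHK2-I (−1.22). AURKB, which works in that same complex, fell with both (−0.66 and −0.77).

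Profiles over the 6 samples were compared by the root mean square difference of −ΔCt, each gene taken relative to its own vehicle mean. Among the 8 genes CDK1 and CCNF were closest (0.125), followed by CCNB2 and GTSE1 (0.188), and CCNB1 and WEE1 were farthest apart (0.934). Of the 76 other genes, those nearest to CDK1 were SKP2 (0.151), CDC25A (0.192) and KPNA2 (0.203), where the median gene lay at 0.743. Nearest to CCNB1 were AURKA (0.359), CCNA2 (0.371) and MKI67 (0.406), all farther from it than the nearest genes of CDK1 were from CDK1. Nearest to CDC25C were STMN1 (0.111), NBN (0.128) and CCNE1 (0.144), and nearest to WEE1 were CUL1 (0.0817), ATR (0.0940) and CCND2 (0.127). The median gene lay at 0.875 from CCNB1, but at only 0.415 from CDC25C and 0.384 from WEE1. All genes of a sample share its RNA, plate and reference genes.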

How the data were processed

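Total RNA of 6 HMC-1.2 samples was reverse transcribed and read with SYBR green on a PCR array whose wells held 84 cell cycle genes, 5 housekeeping genes, and 7 controls. The deposited Ct table and the ΔCt table the authors made from it with the maker's web tool (version not given in the sources used here) are both on a log2 scale. In the ΔCt table the values of B2M, GAPDH, HPRT1 and RPLP0 sum to at most 1e-06 per sample, which identifies them as the reference, and Ct is limited at 35. Tables of fold changes hold the authors' own comparisons and were not used. PCR on an array gives no read depth, so the 2 samples per group limit the precision.

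Differences in mean −ΔCt were tested by limma (version 3.58.1, R 4.3.3) with 3 groups, all 6 samples and no replicate block (degrees of freedom: 3 residual, 4.33 prior; prior SD 0.191). Calls were made where p, adjusted over the 84 genes after Benjamini and Hochberg, was below 0.05. Each sample was also left out in turn. Left with 1 sample, a group is assumed to vary like the others. Alternatives were 8 other references, a Ct limit of 30, genes at a Ct of 35 left out, a replicate block, only the groups compared, sample weights, robust settings and the methods' t-test. For ratios, limma with the denominator gene as reference was added after the data had been seen. Exact permutation tests and motif searches used Python 3.11.15 with scipy 1.17.1. The code was tested on simulated data.

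The 8 genes and all lists were chosen with earlier results of these data known, so they are described by counts and medians only. Named genes are these 8, those called in the 3 pathway lists, and the 3 genes of nearest profile to CDK1, CCNB1, CDC25C and WEE1. Some genes of the lists are counted and not named. Promoter sequences come from RefSeq, and their coordinates belong to its build and not to the array.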

Additional observations from a re-analysis of the deposited data

Results flagged for a closer look

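CKS2 was flagged because the inhibitors moved it to opposite sides of vehicle and the direct test between them passed: the difference SPHK2-I minus SPHK1-I was −0.63 on the log2 scale (limma adjusted p = 0.0365), from 0.15 with SPHK1-I and −0.49 with SPHK2-I, neither of which was called on its own. Without SPHK1-I sample 2 the SPHK1-I value was −0.03, on the same side as SPHK2-I. The difference was not called without SPHK2-I sample 1 or 2 (adjusted p = 0.196 and 0.221), nor without either vehicle sample (0.112), which enters it only through the pooled spread. With 1 reference gene it was −0.37 for ACTB (adjusted p = 0.313), and it was not called for B2M (0.102), HPRT1 (0.0936) or RPLP0 (0.104) either.

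The ratio of CCNB1 to CDK1 was flagged for the same reason. It was higher than vehicle with SPHK1-I and lower with SPHK2-I in every sample, and the difference between the inhibitors was −1.06 on the log2 scale (limma adjusted p = 0.0104 with CDK1 as the single reference). It stayed between −1.11 and −1.01 with any 1 inhibitor sample left out, and its call was lost without SPHK2-I sample 1 or 2 (adjusted p = 0.120 and 0.138).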

How the results depend on the processing

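The number of the 8 genes called moved with the reference, the variance model and single samples. With SPHK1-I it was 3, and became 7 with B2M alone, 1 with HPRT1 alone or a Ct limit of 30, and 0 with GAPDH alone, RPLP0 alone, GAPDH, HPRT1 and RPLP0 together, the median of the 84 genes, only the groups compared, or the methods' t-test after Benjamini-Hochberg on either scale (2 at an unadjusted p under 0.05). With SPHK2-I it was 5, and became 8 with B2M alone and 0 with the methods' t-test on −ΔCt after Benjamini-Hochberg (7 at an unadjusted p under 0.05). For SPHK2-I minus SPHK1-I it was 4, and became 5 with a Ct limit of 30 (CCNF added at −0.77), 3 with ACTB alone (CCNB1 and GTSE1 lower, WEE1 higher at 0.41), 2 with B2M alone, HPRT1 alone, sample weights or the unadjusted t-test on either scale, and 0 with RPLP0 alone, only the groups compared, or the t-test after Benjamini-Hochberg on either scale. With 1 sample left out the counts ranged from 0 to 7 in each of the 3 comparisons. Over the 84 genes, where 30, 24 and 26 were called, the counts ranged from 0 to 70, 0 to 57 and 0 to 61 over all alternatives. For CCNF the Ct limit of 30 altered SPHK1-I sample 2 alone. The causes were not tested.

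The replicate numbers were not taken as pairs, since the deviations of same-numbered samples correlated at −0.258, −0.105 and −0.0415 between groups. With a replicate block 3, 5 and 2 of the 8 genes were called, CCNB2 and CKS2 being the calls lost between the inhibitors (limma adjusted p = 0.0736 and 0.0508). With the block CCNB1 to CDK1 kept its calls (adjusted p = 0.0401, 0.0428 and 0.0339). Of the other ratio calls the block ended that of CDC25C to WEE1 with SPHK1-I (0.0655).

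Of 573 values for single genes under the alternatives, 388 kept direction and side of the threshold, 116 lost the call, 34 gained one and 35 changed sign. With SPHK1-I, CCNB2 was 0.043 with ACTB or GAPDH alone and 0.098 with HPRT1 alone, GTSE1 0.049, 0.048 and 0.10, and WEE1 0.075, 0.075 and 0.13. CKS2 was −0.46 with B2M alone. With 1 sample left out WEE1 ranged from −0.47 to 0.034 and CKS2 from −0.030 to 0.32, the sign changing without SPHK1-I sample 2. With SPHK2-I, WEE1 was 0.049 with all 5 housekeeping genes, 0.49, 0.093 and 0.45 with ACTB, GAPDH or HPRT1 alone, 0.079 with GAPDH, HPRT1 and RPLP0 and 0.23 with the median of the 84 genes. With 1 sample left out it ranged from −0.14 to 0.015, positive without SPHK2-I sample 2. CDC25C was 0.043 and 0.0085, and CKS2 0.065 and 0.031, with ACTB and HPRT1 alone. For SPHK2-I minus SPHK1-I, CDK1 was 0.021 with all 5 housekeeping genes, 0.23, 0.16 and 0.14 with ACTB, B2M or HPRT1 alone and 0.066 with the median. With 1 sample left out CDK1 ranged from −0.40 to 0.34 (positive without SPHK1-I sample 1 or SPHK2-I sample 2), CCNF from −0.60 to 0.094 (positive without SPHK1-I sample 1) and WEE1 from −0.095 to 0.41 (negative without SPHK1-I sample 2). CCNF was 0.00053 with ACTB alone, and with RPLP0 alone CDC25C was −0.018 and WEE1 −0.056. The ratio of CDC25C to WEE1 was −0.088 without SPHK1-I sample 1 and −0.097 without SPHK2-I sample 2. CDC25C lies at a Ct above 30 in every sample and has no value with a Ct limit of 30.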
